A study of Mus musculus with 45 samples.

Results

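Mid1 and its PP2A partner genes are 7 genes chosen by symbol from 33924 genes listed in each expression table: Mid1, its paralogue Mid2, the alpha4 gene Igbp1, the PP2A subunit genes Ppp2ca, Ppp2cb and Ppp2r1a, and Mid1ip1. Each table was read on its own. The question was whether the lower level of Mid1 in cells that lack the lncRNA 5430416N02Rik came with changes of its paralogue and of the phosphatase genes around it. MID1 is a microtubule-bound RING-type ubiquitin ligase of the TRIM family that is mutated in Opitz G/BBB syndrome. It binds alpha4, the regulatory protein that holds and protects the catalytic subunit of protein phosphatase 2A (PP2A), and through this contact it marks the catalytic subunit for degradation. PP2A removes phosphate groups from serine and threonine residues and acts on mTORC1 signalling and on entry into mitosis. RNA levels measure neither the protein nor the phosphatase activity.

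The study asked what the lncRNA does in mouse embryonic stem cells (ESCs) of the 129 strain. The ΔG line keeps the promoter of the lncRNA and carries GFP-IRES-Puro instead of the transcribed part, whereas the ΔPG line has lost both and carries PGK-puromycin. The 24 RNA-seq samples formed 8 groups of 3, in which heterozygous or homozygous cells of either line were kept in DMSO (0 µM retinoic acid; ESCs) or in 2 µM retinoic acid (RA) for 48 h. The heterozygous cells served as controls and carry the same deletion on 1 allele, and no wild-type RNA-seq sample was among them. Each genotype of a line came from 1 clone, so clone and genotype cannot be told apart, and p-values measure the spread between the samples of a clone. The authors deposited regularized log values (rlog, log2 scale) without counts, so the depth of each sample is unknown. The ΔPG and ΔG tables were normalized separately, and tests were kept within a table. The rlog transformation narrows the differences of genes with low counts. None of the 66 pairs of samples in either table held identical values.

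The 3 heterozygous ΔPG ESC libraries stood apart from the other 9 of their table. Each rlog value was taken as its deviation from the mean of the gene over the table. In the 3 libraries these deviations rose by 0.282 to 0.290 for every 10 points of exonic GC content. The slopes were -0.232 to -0.196 in homozygous ΔPG ESCs and -0.0643 to -0.0169 in RA-treated ΔPG cells. Since the gene mean is shared, the slope of a group is relative to the other groups of the table. Mitochondrial mt-Rnr2, the gene with the highest value, stood at 17.7 in these 3 libraries and at 18.7 to 19.5 in the others. The 13 mitochondrial genes deviated from their gene means by -1.27 in heterozygous and by 0.79 in homozygous ΔPG ESCs (mean over samples of the median over genes). Across 11756 genes, the log2 difference between homozygous and heterozygous ΔPG ESCs correlated with GC content at a Pearson's r of -0.709, against 0.00343 across 11848 genes in ΔG ESCs. Genes are not independent replicates, so these are descriptions. For 6 of the 7 genes, all but Mid2, differences with the GC trend removed are given beside those that rest on the heterozygous ΔPG ESCs. Levels, offsets and likeness were not corrected.

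The deleted gene, 5430416N02Rik, had rlog values of 4.62, 4.58 and 4.59 in heterozygous and 2.23, 2.21 and 2.46 in homozygous ΔPG ESCs. After RA, they were 4.24, 3.80 and 4.44 in heterozygous and 2.66, 2.12 and 2.28 in homozygous ΔPG cells. No homozygous sample reached a heterozygous sample of the same treatment. In ΔG ESCs the values were 5.58, 5.54 and 5.50 in heterozygous and 2.63, 2.77 and 2.85 in homozygous samples. After RA, they were 5.64, 5.52 and 5.58 in heterozygous and 2.63, 3.08 and 2.77 in homozygous ΔG cells. The genotypes were again apart. The log2 differences between homozygous and heterozygous cells were -2.30 (ΔPG ESCs), -1.81 (ΔPG, RA), -2.79 (ΔG ESCs) and -2.75 (ΔG, RA), with limma adjusted p-values from 2.77e-11 to 0.00103. The first was -2.38 with the GC trend removed.

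Among the 7 genes, Mid1 was lower in homozygous ESCs of both lines and in RA-treated homozygous ΔPG cells. The other called differences between genotypes were a higher Ppp2ca in homozygous ΔPG ESCs and a lower Mid1ip1 in homozygous ΔG ESCs. Ppp2ca was 0.24 and not called with the GC trend removed. Mid1 and Mid1ip1 were not called in ΔG ESCs with the replicate number as a block, although this number did not pair the samples (own number best in 3 of 18 in ΔG). Calls needed a limma p under 0.1 after Benjamini-Hochberg adjustment over all varying genes of a table, and a log2 difference larger than 0.5 in either direction. No partner was called in both lines. Per-sample levels are shown in the plot of rlog values by gene and group.

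**Figure D1:**
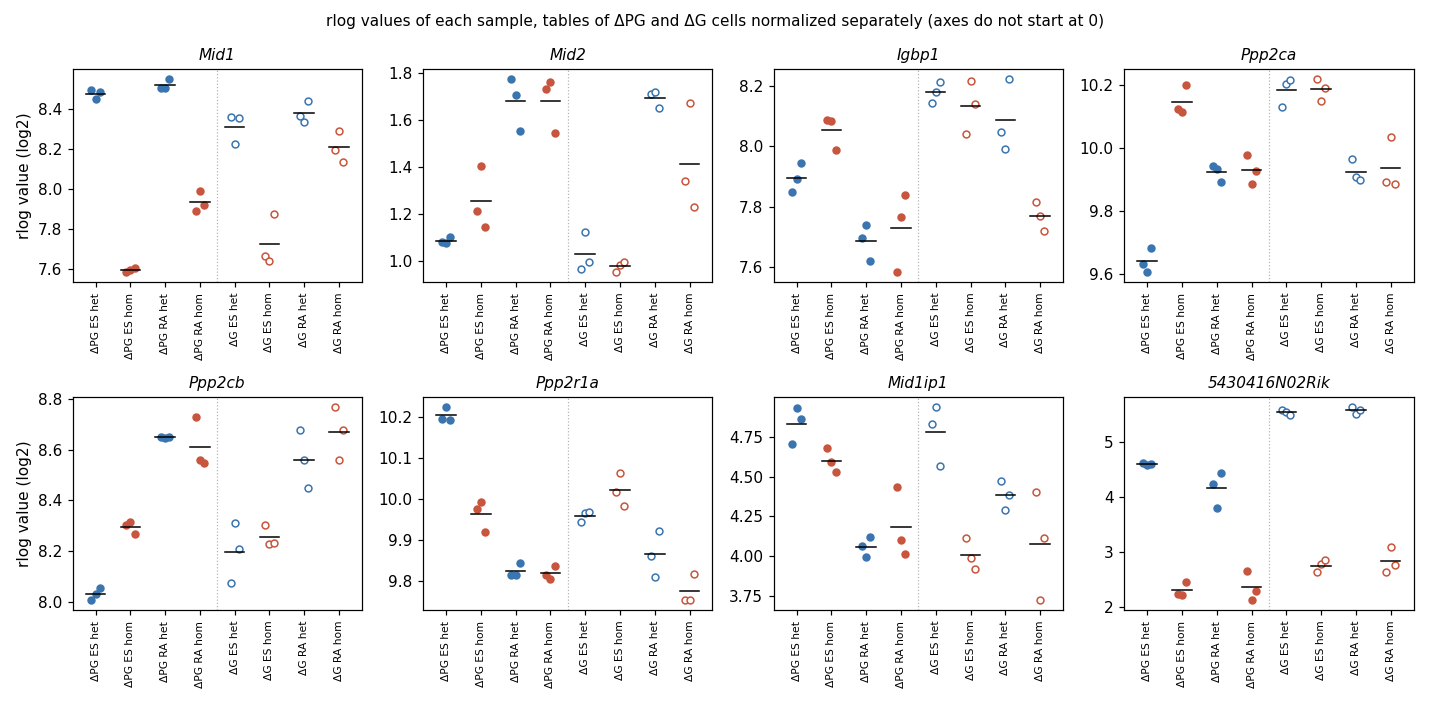
Rlog value (log2 scale, y axis) of 5430416N02Rik and the 7 genes in each of the 24 samples, by treatment and line (x axis). Blue points are heterozygous and red points homozygous samples, filled for ΔPG and open for ΔG, and each line is the mean of 3 samples. Mid1 is lower in every homozygous group than in its heterozygous counterpart. The genotypes of Ppp2ca, Ppp2cb and Ppp2r1a lie farthest apart in ΔPG ESCs, while Ppp2cb and Ppp2r1a also differ between RA and ESCs.

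Mid1 (ENSMUSG00000035299.9, NCBIM37 chromosome X, 166123129 to 166443668, plus strand) had rlog values of 8.49, 8.45 and 8.49 in heterozygous and 7.58, 7.59 and 7.60 in homozygous ΔPG ESCs. After RA, heterozygous ΔPG cells had 8.51, 8.50 and 8.55 and homozygous cells 7.89, 7.99 and 7.92. In both treatments every homozygous sample lay below every heterozygous sample, and the homozygous values were closer to the heterozygous ones after RA. The log2 difference was -0.88 in ΔPG ESCs (SE 0.035, limma adjusted p = 2.19e-06), a ratio of 0.542, and -0.81 with the GC trend removed. In RA-treated ΔPG cells it was -0.59 (SE 0.044, limma adjusted p = 6.94e-05), a ratio of 0.665.

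In ΔG cells, Mid1 had rlog values of 8.36, 8.22 and 8.35 in heterozygous and 7.66, 7.64 and 7.87 in homozygous ESCs. After RA, the values were 8.36, 8.33 and 8.44 in heterozygous and 8.19, 8.29 and 8.14 in homozygous samples. The genotypes did not overlap in either treatment, but after RA the highest homozygous sample came close to the lowest heterozygous one. The log2 difference of Mid1 was -0.59 in ΔG ESCs (SE 0.076, limma adjusted p = 0.00988) and -0.17 in RA-treated ΔG cells (95% interval -0.31 to -0.038, limma adjusted p = 0.121). With the replicate number as a block, which did not pair the samples, the ΔG ESC difference was also -0.59 but not called (limma adjusted p = 0.110). For each of these 4 comparisons, an exact permutation test (two-sided) gave p = 0.1, the smallest that 3 against 3 samples allow.

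Under RA, Mid1 was not called in any of the 4 line and genotype groups. In homozygous cells the log2 difference between RA and ESCs was 0.34 in ΔPG cells (SE 0.054, limma adjusted p = 0.000296) and 0.48 in ΔG cells (SE 0.075, limma adjusted p = 3.10e-05), both below the size limit. The homozygous ΔG value was called after quantile normalization (0.55) and without replicate 3 of RA-treated cells or of ESCs (0.52 and 0.56). In heterozygous cells it was 0.043 in ΔPG (95% interval -0.025 to 0.11; 0.086 with the GC trend removed) and 0.069 in ΔG (95% interval -0.063 to 0.20), and 0.13 and 0.16 after quantile normalization. The difference between the genotype effects in RA and in ESCs, tested as an interaction, was 0.30 in ΔPG (SE 0.054, limma adjusted p = 0.000934) and 0.41 in ΔG cells (SE 0.10, limma adjusted p = 0.0157). The ΔPG interaction of Mid1 was 0.23 (limma adjusted p = 0.0118) with the GC trend removed.

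Mid2 (ENSMUSG00000000266.5, chromosome X, 137199138 to 137302254) encodes the paralogue of MID1, which also binds microtubules and alpha4. Its rlog values were 1.08, 1.08 and 1.10 in heterozygous and 1.21, 1.40 and 1.14 in homozygous ΔPG ESCs, and 0.96, 1.12 and 1.00 in heterozygous and 0.95, 0.98 and 1.00 in homozygous ΔG ESCs. Every homozygous ΔPG ESC sample was above the heterozygous ones, while the ΔG ESC genotypes overlapped. The log2 difference was 0.17 in ΔPG ESCs (95% interval -0.054 to 0.39, limma adjusted p = 0.257) and -0.052 in ΔG ESCs (95% interval -0.22 to 0.12). When single samples were left out, it ran from 0.092 to 0.22 in ΔPG and from -0.084 to -0.0039 in ΔG ESCs. After RA, the differences of Mid2 were 0.00015 in ΔPG (95% interval -0.31 to 0.31) and -0.28 in ΔG cells (95% interval -0.59 to 0.029), and the genotypes overlapped in both. These intervals do not show that Mid2 was equal between genotypes, and at this level the rlog step narrows differences. No GC-corrected value was computed for Mid2, whose mean rlog was below 3.

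Igbp1 (ENSMUSG00000031221.6, chromosome X, 97689630 to 97711464) encodes alpha4. In ΔPG ESCs it had rlog values of 7.85, 7.89 and 7.94 in heterozygous and 8.09, 8.08 and 7.99 in homozygous samples. The genotypes did not overlap, with a log2 difference of 0.16 (SE 0.046, limma adjusted p = 0.0327), but with the GC trend removed the sign turned to -0.25 (limma adjusted p = 0.000201). In ΔG ESCs the Igbp1 difference was -0.047 (95% interval -0.18 to 0.085) and in RA-treated ΔPG cells 0.043 (95% interval -0.11 to 0.20), with overlapping genotypes. In RA-treated ΔG cells Igbp1 had 8.05, 7.99 and 8.22 in heterozygous and 7.82, 7.77 and 7.72 in homozygous samples. All homozygous samples were below the heterozygous ones there, by a log2 difference of -0.32 (SE 0.073, limma adjusted p = 0.00842), which was under the size limit.

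Ppp2ca (ENSMUSG00000020349.4, chromosome 11, 51912183 to 51941280) encodes the alpha isoform of the PP2A catalytic subunit. Its rlog values were 9.63, 9.61 and 9.68 in heterozygous and 10.12, 10.12 and 10.20 in homozygous ΔPG ESCs. In ΔG ESCs they were 10.13, 10.20 and 10.22 in heterozygous and 10.22, 10.15 and 10.19 in homozygous samples. The heterozygous ΔPG ESCs, the libraries that stood apart, were the low group, and the ΔG genotypes overlapped. The log2 difference was 0.51 in ΔPG ESCs (SE 0.033, limma adjusted p = 1.78e-05), a ratio of 1.42. It was called at a size just over the limit, and with the GC trend removed it was 0.24 (limma adjusted p = 6.66e-08) and no longer called. Without homozygous replicate 3 or without heterozygous replicate 2 the differences of Ppp2ca were 0.48 and 0.49 and not called either. In ΔG ESCs the difference was 0.0037 (95% interval -0.072 to 0.080), in RA-treated ΔPG cells 0.0073 (95% interval -0.065 to 0.080) and in RA-treated ΔG cells 0.014 (95% interval -0.083 to 0.11), and each of these 3 turned negative after quantile normalization.

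Ppp2cb (ENSMUSG00000009630.9, chromosome 8, 34710093 to 34730266) encodes the beta isoform of the catalytic subunit. In ΔPG ESCs its rlog values were 8.01, 8.03 and 8.05 in heterozygous and 8.30, 8.31 and 8.27 in homozygous samples, without overlap. The log2 difference was 0.26 (SE 0.035, limma adjusted p = 0.00073), below the size limit, and 0.33 with the GC trend removed (limma adjusted p = 1.20e-06). In the other 3 genotype comparisons the differences of Ppp2cb were -0.037 (ΔPG, RA; 95% interval -0.15 to 0.078), 0.056 (ΔG ESCs; 95% interval -0.098 to 0.21) and 0.11 (ΔG, RA; 95% interval -0.035 to 0.25), with overlapping genotypes. Ppp2ca and Ppp2cb did not move against each other between genotypes in ΔG cells beyond their spread. The rlog difference of Ppp2ca minus Ppp2cb in ΔG ESCs was 1.99 ± 0.085 (heterozygous; SD, n = 3) and 1.93 ± 0.021 (homozygous; SD, n = 3). In ΔPG ESCs it was 1.61 ± 0.031 (SD, n = 3) and 1.85 ± 0.071 (SD, n = 3), although with the GC trend removed the difference between genotypes was smaller for Ppp2ca (0.24) than for Ppp2cb (0.33).

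Ppp2r1a (ENSMUSG00000007564.8, chromosome 17, 21082275 to 21102880) encodes the scaffold subunit on which a catalytic and a regulatory subunit assemble. Its rlog values were 10.20, 10.22 and 10.19 in heterozygous and 9.98, 9.99 and 9.92 in homozygous ΔPG ESCs, and 9.94, 9.97 and 9.97 in heterozygous and 10.02, 10.06 and 9.98 in homozygous ΔG ESCs. The genotypes did not overlap in either line, and homozygous samples were the lower ones in ΔPG and the higher ones in ΔG. The log2 difference was -0.24 in ΔPG ESCs (SE 0.027, limma adjusted p = 0.000255) and 0.062 in ΔG ESCs (95% interval -0.0050 to 0.13, limma adjusted p = 0.366). Removal of the GC trend brought the ΔPG value to -0.058 (limma adjusted p = 0.112). After RA the differences of Ppp2r1a were -0.0049 in ΔPG (95% interval -0.066 to 0.056) and -0.090 in ΔG cells (95% interval -0.18 to 0.0031).

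Mid1ip1 (ENSMUSG00000008035.6, chromosome X, 10292139 to 10296816) encodes a small MID1-binding protein, also called MIG12, that stabilizes microtubules and activates acetyl-CoA carboxylase. In ΔG ESCs its rlog values were 4.83, 4.94 and 4.57 in heterozygous and 4.11, 3.99 and 3.92 in homozygous samples. The genotypes were apart, and Mid1ip1 fell by 0.77 on the log2 scale (SE 0.12, limma adjusted p = 0.0209), a ratio of 0.586. With the replicate number as a block, which did not pair the samples, this fall had the same size but was not called (limma adjusted p = 0.137). In ΔPG ESCs the values were 4.71, 4.93 and 4.86 in heterozygous and 4.68, 4.59 and 4.53 in homozygous samples, close to each other but without overlap. The difference was -0.23 (95% interval -0.47 to 0.0010, limma adjusted p = 0.132) and 0.12 with the GC trend removed. After RA the genotypes overlapped, with differences of 0.12 in ΔPG (95% interval -0.20 to 0.45) and -0.30 in ΔG cells (95% interval -0.63 to 0.022), the latter -0.46 to -0.12 when single samples were left out. The ΔPG and ΔG effects on Mid1ip1 were not tested against each other.

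**Figure D2:**
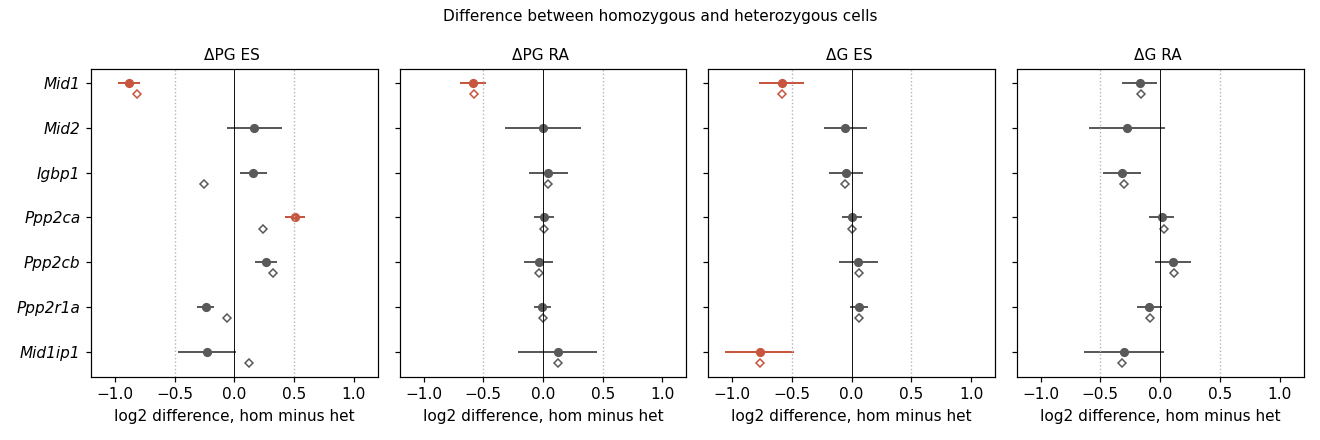
Log2 difference between homozygous and heterozygous samples (x axis) for the 7 genes (y axis) in ΔPG and ΔG ESCs and after RA, with 3 samples per genotype. Filled dots with bars are limma differences with their 95% interval, open diamonds the differences with the GC trend removed, red marks a call and dotted lines the size limit of 0.5; Mid1 is called in 3 of the 4 panels, and open and filled marks lie farthest apart in ΔPG ESCs.

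Counted together, 1 of the 7 genes was called higher (Ppp2ca) and 1 lower (Mid1) in homozygous ΔPG ESCs, where 6.87% of the 21979 genes tested were called higher and 6.29% lower. The genotypes did not overlap for 7 of 7 genes, against 39.6% of all genes, and 5 of 7 had an adjusted p under 0.1, against 36.1%. After removal of the GC trend 1 of the 6 genes with such a value was called, Mid1, where 520 of 11756 genes were called higher and 323 lower. In homozygous ΔG ESCs, 0 of 7 were called higher by limma, where 0.354% of 22048 genes were, and 2 of 7 were called lower (Mid1 and Mid1ip1), where 0.63% were. Of the 7 genes, 2 had an unadjusted p under 0.05, against 3406 of 22048 genes, and these 2 also had an adjusted p under 0.1, against 5.22% of all genes. The ΔG ESC genotypes did not overlap for 3 of 7 genes, against 17.8%. Mid1 had been chosen with its fall known, so its call adds nothing to these counts.

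After RA, 0 of 7 genes were called higher by limma in homozygous ΔPG cells, where 0.241% of all genes were, and 1 of 7 lower (Mid1), where 0.605% were. Mid1 was also the 1 gene with an unadjusted p under 0.05, against 3069 of 21979 genes, the 1 gene with an adjusted p under 0.1, against 4.58% of all genes, and the 1 gene whose genotypes did not overlap, against 18.8%. In RA-treated homozygous ΔG cells limma called 0 of 7 genes higher and 0 of 7 lower, where 0.676% and 1.46% of all genes were called. There, 2 of 7 genes had an unadjusted p under 0.05 (Mid1 and Igbp1), against 4322 of 22048 genes, and the genotypes of 2 of 7 did not overlap, against 21.8%. Igbp1 was the 1 gene with an adjusted p under 0.1, against 11.0%.

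Set against the median of the other 6 genes in the same sample, Mid1 in ΔPG ESCs stood on the rlog scale at 0.51 ± 0.045 (heterozygous; SD, n = 3) and at -0.58 ± 0.049 (homozygous; SD, n = 3). After RA the offsets were 0.35 ± 0.055 (SD, n = 3) and -0.24 ± 0.056 (SD, n = 3). The ΔG ESCs had 0.12 ± 0.14 (heterozygous; SD, n = 3) and -0.47 ± 0.14 (homozygous; SD, n = 3). The offset of Mid1 was thus lower in homozygous than in heterozygous cells of these 3 comparisons by more than the spread. In RA-treated ΔG cells it was 0.055 ± 0.051 (SD, n = 3) and -0.012 ± 0.12 (SD, n = 3), within the spread. These offsets compare values of genes of different length and serve as a description of each sample.

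Divided by exonic length, the levels of the 7 genes (rlog minus log2 of the length in kb) were ordered alike in all 8 groups, except for the places of Mid1 and Igbp1. Ppp2r1a had the highest level, followed by Ppp2cb, Ppp2ca, Mid1 or Igbp1, Mid1ip1 and Mid2. In heterozygous ΔPG ESCs the levels per kb were 8.45 ± 0.017 for Ppp2r1a, 7.16 ± 0.024 for Ppp2cb, 6.74 ± 0.039 for Ppp2ca and 5.73 ± 0.023 for Mid1 (SD, n = 3). Igbp1 followed at 5.38 ± 0.047, Mid1ip1 at 3.74 ± 0.11 and Mid2 at -1.94 ± 0.012 (SD, n = 3). In homozygous ΔPG ESCs, Mid1 at 4.84 ± 0.011 lay below Igbp1 at 5.54 ± 0.056 (SD, n = 3). Mid1 was also below Igbp1 in heterozygous and homozygous ΔG ESCs and above it in RA-treated heterozygous ΔPG and homozygous ΔG cells. Neighbours in the order overlapped for Mid1 and Igbp1 in RA-treated homozygous ΔPG and heterozygous ΔG cells, and for Ppp2cb and Ppp2ca in heterozygous ΔG ESCs. All other neighbours were apart in their 3 samples.

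RA treatment was followed by called differences of Mid2, Ppp2cb and Mid1ip1 in heterozygous cells. Mid2 rose in RA-treated heterozygous cells, from 1.08, 1.08 and 1.10 to 1.77, 1.71 and 1.55 in ΔPG and from 0.96, 1.12 and 1.00 to 1.71, 1.72 and 1.65 in ΔG. Every RA sample was above every ESC sample, with log2 differences of 0.59 in ΔPG (SE 0.10, limma adjusted p = 0.00164) and 0.67 in ΔG (SE 0.12, limma adjusted p = 0.000291). After quantile normalization the ΔPG value was 0.43 and not called. In homozygous cells the RA effect on Mid2 was 0.43 in ΔPG and 0.44 in ΔG (limma adjusted p = 0.0251 and 0.0114), below the size limit. After quantile normalization these were 0.24 and 0.30, and they were called without homozygous ΔPG ESC replicate 2 (0.50) and without RA-treated homozygous ΔG replicate 3 (0.53). Ppp2cb went from 8.01, 8.03 and 8.05 to 8.65, 8.65 and 8.65 in heterozygous ΔPG cells, a log2 difference of 0.62 (SE 0.028, limma adjusted p = 1.16e-06), and 0.65 with the GC trend removed. Its RA effect was 0.32 in homozygous ΔPG, 0.36 in heterozygous ΔG and 0.41 in homozygous ΔG cells, each with an adjusted p under 0.1 in limma and below the size limit. Mid1ip1 fell in RA-treated heterozygous ΔPG cells, from 4.71, 4.93 and 4.86 to 4.07, 4.00 and 4.12, a log2 difference of -0.77 (SE 0.099, limma adjusted p = 0.000351), and -0.53 and still called with the GC trend removed. Its RA effect was -0.42 in homozygous ΔPG, -0.40 in heterozygous ΔG and 0.071 in homozygous ΔG cells, and the last turned to -0.37 after quantile normalization. The homozygous ΔPG and heterozygous ΔG values of Mid1ip1 were called after quantile normalization (-0.79 and -0.80) and with the GC trend removed (-0.52 and -0.51).

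Ppp2ca differed between RA and ESCs by 0.28 in heterozygous ΔPG (limma adjusted p = 7.62e-05), -0.22 in homozygous ΔPG (limma adjusted p = 0.000543), -0.26 in heterozygous ΔG (limma adjusted p = 9.87e-05) and -0.25 in homozygous ΔG cells (limma adjusted p = 8.17e-05). The heterozygous ΔPG value was 0.066 with the GC trend removed (limma adjusted p = 0.0368) and 0.51 and called after quantile normalization. After quantile normalization the value in homozygous ΔPG cells turned to 0.024, and those in heterozygous and homozygous ΔG cells shrank to -0.036 and -0.0084. Ppp2r1a had RA differences of -0.38 (heterozygous ΔPG), -0.14 (homozygous ΔPG), -0.095 (heterozygous ΔG) and -0.25 (homozygous ΔG), of which quantile normalization turned the homozygous ΔPG value to 0.080 and the heterozygous ΔG value to 0.12 and brought the others to -0.15 (heterozygous ΔPG) and -0.032 (homozygous ΔG). The heterozygous ΔPG value of Ppp2r1a was -0.24 with the GC trend removed. Igbp1 had RA differences of -0.21 and -0.32 in heterozygous and homozygous ΔPG cells and of -0.092 (-0.014 after quantile normalization) and -0.36 in heterozygous and homozygous ΔG cells. The Igbp1 value of heterozygous ΔPG cells was -0.53 and called with the GC trend removed (limma adjusted p = 4.15e-11).

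In heterozygous ΔPG cells RA raised 2 of 7 genes (Mid2 and Ppp2cb) and lowered 1 (Mid1ip1), where 18.0% of all genes were called higher and 13.6% lower. With the GC trend removed, Ppp2cb was called higher and Igbp1 and Mid1ip1 lower (all genes 2837 and 2480 of 11756), and Mid2 had no value. After quantile normalization Mid2 was no longer called (0.43) and Ppp2ca was called higher (0.51). In heterozygous ΔG cells limma called 1 of 7 higher (Mid2), against 17.7%, and 0 of 7 lower, against 11.7%, and 5 of 7 had an unadjusted p under 0.05, against 11866 of 22048 genes. For homozygous ΔPG cells limma called 0 of 7 higher and 0 of 7 lower, against 16.5% and 11.3%, while 7 of 7 had an unadjusted p under 0.05, against 11348 of 21979 genes. For homozygous ΔG cells limma called 0 of 7 higher and 0 of 7 lower, against 17.0% and 12.1%, while 6 of 7 had an unadjusted p under 0.05, against 11676 of 22048 genes. At these shares about 1 of 7 genes would be called in each direction, against 0 to 2 found. Each RA comparison shares its ESC samples with a genotype comparison.

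Tested as an interaction, the genotype effect in RA minus that in ESCs was called by limma for 0 of 7 genes in ΔPG, where 13.9% of all genes were called, and 4 of 7 had an unadjusted p under 0.05, against 7247 of 21979 genes. Besides Mid1, these were Ppp2ca with -0.50 (SE 0.048, limma adjusted p = 3.11e-06), Ppp2cb with -0.30 (SE 0.064, limma adjusted p = 0.00296) and Ppp2r1a with 0.24 (SE 0.037, limma adjusted p = 0.000251). Removal of the GC trend gave -0.24 for Ppp2ca, -0.36 for Ppp2cb and 0.061 for Ppp2r1a (limma adjusted p = 0.295 for the last). In ΔG cells limma called 0 of 7, where 2.38% of all genes were called, and 4 of 7 had an unadjusted p under 0.05, against 3234 of 22048 genes. These were Mid1, Igbp1 with -0.27 (limma adjusted p = 0.151), Ppp2r1a with -0.15 (limma adjusted p = 0.180) and Mid1ip1 with 0.47 (limma adjusted p = 0.277).

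The phosphatase genes around the 7 were read in lists, whose counts are to be set against those of all genes. Between genotypes, 6.87% of all genes were called higher and 6.29% lower in ΔPG ESCs, 0.241% and 0.605% in RA-treated ΔPG cells, 0.354% and 0.63% in ΔG ESCs and 0.676% and 1.46% in RA-treated ΔG cells. An unadjusted p under 0.05 was found for 8432 and 3069 of 21979 genes in ΔPG ESCs and RA-treated ΔPG cells and for 3406 and 4322 of 22048 genes in ΔG ESCs and RA-treated ΔG cells. Under RA, 16.5% to 18.0% of all genes were called higher and 11.3% to 13.6% lower. Of 35 further genes of PP2A and the related alpha4-bound phosphatases PP4 and PP6, 34 varied. In homozygous ΔPG ESCs, 5 of these 34 were called higher and 3 lower, with a median log2 difference of 0.094 against 0.0019 over all genes. With the GC trend removed 1 was called higher and 0 lower (520 and 323 of 11756 genes), and the median was 0.030. By list, 1 of 14 regulatory B subunit genes was called higher (Ppp2r2a, 0.71) and 1 lower (Ppp2r5b, -0.63). Of the 9 PP4 and PP6 genes, 1 was called higher (Ppp6c, the catalytic subunit of PP6, 0.90) and 1 lower (Ppp6r1, -0.64). Of 10 modifiers and inhibitors of PP2A, 3 were called higher, led by Arpp19 (0.99) and C330027C09Rik (0.94), and 1 lower (Ppp2r4, -0.74). ARPP19 inhibits PP2A at mitosis, C330027C09Rik encodes the inhibitor CIP2A, and Ppp2r4 encodes the PP2A activator PTPA. With the GC trend removed, Arpp19 kept a called difference of 0.65, and the other 6 named genes were no longer called. Their differences were then 0.498 (Ppp2r2a), -0.40 (Ppp2r4), -0.24 (Ppp6r1), 0.20 (Ppp6c), -0.19 (Ppp2r5b) and 0.18 (C330027C09Rik). Of the 4 catalytic and scaffold genes Ppp2ca, Ppp2cb, Ppp2r1a and Ppp2r1b, 1 was called (Ppp2ca).

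In the other 3 genotype comparisons limma called 0 of these 34 genes. An unadjusted p under 0.05 was found for 7 in RA-treated ΔPG cells, 8 in ΔG ESCs and 8 in RA-treated ΔG cells, and the medians were -0.0078, 0.031 and 0.056. Medians over all genes were 0.0052, -0.0057 and 0.00080. Between 0.241% and 1.46% of all genes were called per direction in these comparisons, so a count of 0 of 34 says little about these genes. Under RA, 8 of the 34 were called higher and 3 lower in heterozygous ΔPG, 4 and 2 in homozygous ΔPG, 5 and 3 in heterozygous ΔG, and 6 and 3 in homozygous ΔG cells. With the GC trend removed, 6 and 2 of the 34 were called in heterozygous ΔPG cells (2837 and 2480 of 11756 genes). Of 14 regulatory B subunit genes, 4 were called higher in heterozygous and 4 in homozygous ΔG cells. With the GC trend removed, 2 of 13 were called higher in each (2855 and 2901 of 11848 genes). The neural regulatory subunit gene Ppp2r2b rose most in ΔPG cells (2.11 in heterozygous and 1.86 in homozygous cells), and Ppp2r2c led in ΔG cells (1.15 and 1.56). The inhibitor genes Set and Anp32a were called lower in all 4 RA comparisons, with differences of -0.95 to -0.82 for Set and of -1.22 to -0.76 for Anp32a. Arpp19, of the same list, was called higher in heterozygous ΔPG cells (0.83, and 0.55 and still called with the GC trend removed). Ppp2r4 was called higher in heterozygous and homozygous ΔG cells (0.72 and 0.56). With the GC trend removed these were 0.62 and still called, and 0.43 and not called. Among the PP4 and PP6 genes, RA comparisons called Ppp4c lower in heterozygous ΔPG (-0.67; -0.45 and not called with the GC trend removed), Ppp6r2 higher in homozygous ΔPG and ΔG (0.61 and 0.66) and Ppp6c lower in heterozygous and homozygous ΔG cells (-0.55 and -0.57; -0.36 and -0.33 and not called with the GC trend removed).

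MID1 and PP2A have been tied to CDC25B, the phosphatase that activates CDK1 at mitotic entry. Of the 10 genes of this list, 1 was called higher in homozygous ΔPG ESCs, against 6.87% of all genes (Cdk1, 0.53; 0.50 and not called with the GC trend removed). Limma called 0 of 10 in RA-treated ΔPG cells, ΔG ESCs and RA-treated ΔG cells, with an unadjusted p under 0.05 for 4, 3 and 3 genes. The list medians in these 4 comparisons were 0.012 (0.076 with the GC trend removed), 0.15, 0.090 and -0.014. In the ΔPG interaction 2 of 10 were called, where 13.9% of all genes were, and in the ΔG interaction 0 of 10, where 2.38% were. The 2 were Cdc25b (0.76, limma adjusted p = 2.05e-05) and Pkmyt1 (0.69). With the GC trend removed, Cdc25b was 0.51 and still called, and Pkmyt1 0.18 and not called. Under RA, Cdc25b was called higher in homozygous ΔPG (0.75), heterozygous ΔG (0.57) and homozygous ΔG cells (0.71), and Pkmyt1 lower in heterozygous ΔPG cells (-0.51; -0.28 and not called with the GC trend removed).

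Of 12 genes of the mTORC1 arm, which MID1 and PP2A regulate, 1 was called higher (the S6 kinase gene Rps6kb1, 0.51) and 1 lower (Rptor, -0.56) in homozygous ΔPG ESCs, and these were -0.16 and -0.33 and not called with the GC trend removed, where 1 other gene of the 12 was called higher. In RA-treated ΔPG cells, ΔG ESCs and RA-treated ΔG cells limma called 0 of 12, with an unadjusted p under 0.05 for 2, 1 and 3. The medians of the 4 comparisons were -0.12 (0.083 with the GC trend removed), -0.0034, 0.053 and -0.017. RA lowered 2 of 12 in each of the 4 groups, near the 11.3% to 13.6% of all genes, Eif4ebp1 (-1.53 to -1.12) and Deptor (-1.32 to -0.88), and raised 1 in heterozygous ΔPG cells (Rps6kb1, 0.50; 0.040 and not called with the GC trend removed).

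Of the 10 genes for COS-box relatives of MID1, which share its microtubule-binding motif, 9 varied. Besides Mid1, 1 was called between genotypes, Fsd1 in homozygous ΔPG ESCs (-0.73; -0.32 and not called with the GC trend removed). In RA-treated ΔG cells limma called 0 of 9, and 4 had an unadjusted p under 0.05. The list medians were -0.10 (ΔPG ESCs; -0.32 over 3 genes with the GC trend removed), 0.00015 (ΔPG, RA), 0.010 (ΔG ESCs) and 0.061 (ΔG, RA). RA raised Fsd1 (0.95 to 1.74) and lowered Trim63 in all 4 groups, Trim63 least in homozygous ΔG cells (-1.34).

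Of 7 hedgehog pathway genes, chosen because MID1 acts on the nuclear entry of GLI3, limma called 0 in each of the 4 genotype comparisons, and 2 (ΔPG ESCs), 2 (ΔPG, RA), 1 (ΔG ESCs) and 3 (ΔG, RA) had an unadjusted p under 0.05. The medians were 0.050 (0.25 with the GC trend removed), 0.056, -0.029 and 0.081. RA called 3 to 5 of these 7 genes higher, against 16.5% to 18.0% of all genes, led by Gli3 (2.09 to 2.59) and the receptor-associated Smo (0.97 to 1.76). Gli2 was called lower in heterozygous ΔPG (-0.71; -0.46 and not called with the GC trend removed), heterozygous ΔG (-0.58) and homozygous ΔG cells (-0.77), and Gli1 in heterozygous ΔPG cells (-0.68; -0.44 and not called with the GC trend removed).

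Around Mid1 on chromosome X of NCBIM37, 9 of the 10 nearest genes before it had a name of their own, and 5 of these varied. Of the 5, 1 was called higher in homozygous ΔPG ESCs, the pseudogene BC022960 (0.59, limma adjusted p = 0.00694), which was also the nearest one tested, 315.2 kb away and too low for a GC-corrected value. In RA-treated ΔPG cells, ΔG ESCs and RA-treated ΔG cells limma called 0 of 5, with an unadjusted p under 0.05 for 0, 1 and 1. Of 5 genes within Mid1, all on the opposite strand, 4 varied among ΔPG and 3 among ΔG samples, and limma called 0 in each genotype comparison, with an unadjusted p under 0.05 for 1 in ΔPG ESCs (Gm15247, -0.19, limma adjusted p = 0.000717, named after its value was seen) and 0 in the others. The varying genes within Mid1 were very low, with mean rlog values in ΔPG of -2.21 (4933400A11Rik), -1.48 (G530011O06Rik), -0.89 (Gm15726) and -0.80 (Gm15247). In ΔG the last 3 had -1.97, -1.97 and -0.81. At such levels the rlog step narrows differences, so these counts do not show that the genes were unchanged. The 2 genes after Mid1 did not vary. RA raised Msl3 and Arhgap6 in all 4 groups (0.75 to 1.37 and 0.78 to 1.09). With so few neighbours tested, these counts say little beside the 6.87% higher and 6.29% lower calls of all genes in ΔPG ESCs and the 0.354% and 0.63% in ΔG ESCs.

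Mid1, Mid2, Igbp1 and Mid1ip1, 4 of the 7 genes, lie on chromosome X. Of the X-linked genes tested, 110 of 966 were called higher and 18 lower in homozygous ΔPG ESCs, where 6.87% and 6.29% of all genes were. Of 977 in homozygous ΔG ESCs, limma called 15 higher and 5 lower, where 0.354% and 0.63% of all genes were. With the GC trend removed, over 405 X-linked genes, 20 were called higher and 20 lower in ΔPG ESCs, where 520 and 323 of 11756 genes were. After RA, 2 were called higher and 5 lower in ΔPG (all genes 0.241% and 0.605%) and 13 higher and 20 lower in ΔG cells (all genes 0.676% and 1.46%). The median log2 differences of X-linked genes were 0.0088 and -0.0057 in ΔPG and ΔG ESCs, against 0.0019 and -0.0057 over all genes, and 0.0048 and -0.0067 after RA.

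The marker genes of cell states were read beside these values, against the same shares of all genes. Of 8 pluripotency genes, 1 was called lower in homozygous ΔPG ESCs (0 with the GC trend removed) and 1 lower in RA-treated homozygous ΔPG cells, and limma called 0 in ΔG ESCs and in RA-treated ΔG cells (unadjusted p under 0.05 for 4 and 1). Their summed level (log2 of the sum of values taken off the log scale) was 14.11 and 13.92 in heterozygous and homozygous ΔPG ESCs and 14.18 and 14.15 in ΔG ESCs, with Dppa5a the most abundant. After RA it was 10.67 and 10.72 in ΔPG and 10.67 and 10.65 in ΔG cells. The 5 RA response genes were called higher after RA in all 4 groups, and their summed level, led by Cyp26a1, was 10.56 and 10.63 in heterozygous and homozygous ΔPG and 10.94 and 10.97 in ΔG cells. Of 5 extraembryonic endoderm genes, 3 were called lower in RA-treated homozygous ΔPG and 1 in RA-treated homozygous ΔG cells, against 0.605% and 1.46% of all genes. Their summed level there was 8.91 and 8.39 in heterozygous and homozygous ΔPG (led by Dab2) and 9.18 and 8.80 in ΔG cells (led by Dab2 and Gata6).

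Among 3 varying neural genes of 4, 2 were called lower in homozygous ΔPG ESCs (0 with the GC trend removed) and 1 higher in RA-treated homozygous ΔG cells. The summed level in ESCs was 9.29 and 8.62 in heterozygous and homozygous ΔPG and 8.38 and 8.51 in ΔG cells, with Nes most abundant except in homozygous ΔG ESCs (Tubb3), and after RA it was 9.80 and 9.65 in ΔPG and 9.32 and 9.60 in ΔG cells. Of 3 mesoderm genes 1 was called higher in RA-treated homozygous ΔG cells, with summed levels of 3.80 and 4.34 led by Hand1, against 4.28 and 4.14 in RA-treated ΔPG cells. Limma called 0 of 3 trophoblast genes in the genotype comparisons (unadjusted p under 0.05 for 0, 1, 2 and 0 in ΔPG ESCs, ΔPG RA, ΔG ESCs and ΔG RA), and their summed level was 5.23 and 5.23 in ΔPG and 5.22 and 4.89 in ΔG ESCs, led by Eomes. Of 5 fibroblast genes, 1 was called lower in RA-treated homozygous ΔG cells, where the summed level was 9.28 in heterozygous and 8.12 in homozygous samples, against 8.31 and 8.46 in RA-treated ΔPG cells. In ESCs it was 5.26 and 5.29 in ΔPG and 5.10 and 4.96 in ΔG cells, led by Col1a2. The 3 Zscan4 genes that mark 2-cell-like cells, near-identical copies that can share reads, were called higher in homozygous ΔPG cells (2 of 3 in ESCs, 1 of 3 with the GC trend removed, and 3 of 3 after RA) and lower in homozygous ΔG cells (2 of 3 and 3 of 3). Their summed level in ESCs was 5.64 and 6.28 in ΔPG and 6.44 and 5.68 in ΔG cells, and after RA 7.99 and 8.79 in ΔPG and 9.51 and 8.75 in ΔG cells. The part of these marker differences in the values of Mid1 and its partners was not tested, and fewer cells of a type and less RNA per cell cannot be told apart in bulk samples.

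The genes whose pattern over the 8 group means was most like that of Mid1, among 11765 genes centred within each table, were Psrc1 (root mean square difference 0.11 on the log2 scale), Tert (0.15), Mical3 (0.15), Tmem205 (0.16) and Rgs3 (0.16). The median gene was at 0.43. Psrc1 encodes a microtubule-binding protein of the spindle. These genes were picked by the same values, so their differences between genotypes are not given as tests. The partners were not among these closest genes, but all those compared except Ppp2ca were closer to Mid1 than the median gene was. Ppp2r1a was at rank 3256 (0.35), Ppp2cb at 4109 (0.38), Mid1ip1 at 4928 (0.40), Igbp1 at 5226 (0.41) and Ppp2ca at 6399 (0.45). Mid2 had a mean below 3 and was not compared.

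Contacts of the 5430416N02Rik promoter were mapped by 4C-seq in 2 replicates, with 339 and 341 regions listed by start and end without a score. The methods name mm9 (NCBIM37) for these data, but the build used here was settled from HindIII sites. As deposited, 12 and 16 region starts lay at such a site of NCBIM37, and after the offset between GRCm38 and NCBIM37 gene positions was taken off 337 and 336 did, so RefSeq GRCm38.p6 gene positions were used. Among the partners, Mid2 (chrX:140664304-140767715) lay in a region of both replicates, chrX:136759640-142071565 and chrX:139007316-141203388. Igbp1 (chrX:100494291-100516125) lay in chrX:98208959-106694710 and chrX:97197298-108767915. Mid1ip1 overlapped a region of replicate 1 only, Ppp2ca one of replicate 2 only, and Mid1 itself one of replicate 2 only, 170.3 kb from the nearest of replicate 1, while Ppp2cb and Ppp2r1a lay at least 17763.1 kb and 2154.1 kb from any region. Counting Mid1, 3 of 7 genes overlapped a region in replicate 1, 4 of 7 in replicate 2 and 2 of 7 in both. Of 21887 protein-coding genes, 53.5%, 53.0% and 38.4% did, so the 7 genes did not stand out by count. Regions are megabases long and hold many genes.

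Promoter sequences from RefSeq (GRCm38.p6, from 250 bases before to 50 after a transcript start, plus strand for each) were found for 6 of the 7 genes, in 8 promoters. Ppp2cb is named only. The GC-box letters GGGCGG, read on the other strand as CCGCCC, occurred in 35.7% of 32851 promoters. They were found in Ppp2ca (2), Ppp2r1a (3), Mid2 (1) and Mid1ip1 (3), and not in the Igbp1 promoter or the 3 Mid1 promoters. TATAAA, or TTTATA on the other strand, in 13.6% of all promoters, was in none of the 8. CCAAT, or ATTGG on the other strand, in 37.4%, was in those of Igbp1 and Ppp2r1a and in the last of Mid1. CACCC, or GGGTG on the other strand, in 57.5% of all promoters, was in all 3 of Mid1, in Mid2 and in Mid1ip1. GC content was 43.7%, 53.7% and 55.0% in the Mid1 promoters, against a median of 52.7%, and 68.0% in that of Mid1ip1. A match of letters is a description of the sequence. The promoters of Mid1 and Mid1ip1, the 2 genes called lower in homozygous ΔG ESCs, are given with GGGCGG or CCGCCC in capitals; those of Mid1 hold neither. They lie at chrX:169684949-169685248, chrX:169827909-169828208 and chrX:169879369-169879668 for Mid1 and at chrX:10717115-10717414 for Mid1ip1.
Mid1 promoter 1: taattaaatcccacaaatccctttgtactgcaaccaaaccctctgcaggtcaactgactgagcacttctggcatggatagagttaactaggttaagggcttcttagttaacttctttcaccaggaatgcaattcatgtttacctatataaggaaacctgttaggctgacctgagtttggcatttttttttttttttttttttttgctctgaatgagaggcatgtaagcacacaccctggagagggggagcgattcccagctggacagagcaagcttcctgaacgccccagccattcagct
Mid1 promoter 2: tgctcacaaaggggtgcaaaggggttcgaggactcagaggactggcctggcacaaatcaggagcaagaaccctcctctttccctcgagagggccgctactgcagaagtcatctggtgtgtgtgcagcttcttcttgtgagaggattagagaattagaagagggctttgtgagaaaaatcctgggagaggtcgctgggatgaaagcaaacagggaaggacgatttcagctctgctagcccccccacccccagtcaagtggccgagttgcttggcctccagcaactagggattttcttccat
Mid1 promoter 3: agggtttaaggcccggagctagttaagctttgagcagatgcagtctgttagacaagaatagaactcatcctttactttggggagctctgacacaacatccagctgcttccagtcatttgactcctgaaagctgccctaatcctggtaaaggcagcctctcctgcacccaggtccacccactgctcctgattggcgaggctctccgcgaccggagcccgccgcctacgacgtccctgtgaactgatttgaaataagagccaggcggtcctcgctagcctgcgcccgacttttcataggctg
Mid1ip1 promoter: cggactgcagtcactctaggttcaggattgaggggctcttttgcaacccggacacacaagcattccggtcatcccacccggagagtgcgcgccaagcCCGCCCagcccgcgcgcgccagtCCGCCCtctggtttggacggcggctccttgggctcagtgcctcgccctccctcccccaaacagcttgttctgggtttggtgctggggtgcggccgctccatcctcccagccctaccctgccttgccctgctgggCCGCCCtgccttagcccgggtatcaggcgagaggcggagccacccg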

How the data were processed

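The sources were the expression tables (24 samples) and the 4C-seq region lists (2 replicates). According to the submitters' processing notes, the authors mapped RNA-seq reads to mm9 with TopHat2 2.1.0, took out duplicates with Picard, made stranded gene counts with HTSeq 0.6.0 and normalized these with DESeq2 1.14.1. The deposited RNA-seq values are rlog values on the log2 scale, in a table of 12 ΔPG and a table of 12 ΔG samples, and they carry no depth. It is not stated whether the rlog step knew the sample groups. The deposited 4C-seq files hold other values, the chromosome, start and end positions of significant regions, which the authors called in each replicate after mapping with BWA 0.7.15. All columns of the tables were matched to samples (unmapped columns 0).

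Of 33924 genes listed, 21979 (ΔPG) and 22048 (ΔG) varied and were tested. Limma 3.58.1 in R 4.3.3 (functions lmFit and eBayes, trend on) took the 6 samples of a comparison, or all 12 of a table for the interaction. Limits of a call were an adjusted p under 0.1 and a log2 difference beyond 0.5 in size. Python 3.11.15 with numpy 2.4.6, pandas 2.3.3, scipy 1.17.1 and matplotlib 3.10.9 was used for the rest. Fits were tested on simulated data. Alternatives were a mean rlog of at least 3, quantile normalization, removal of the trend with exonic GC content (genes with a mean rlog of at least 3), adjusted p under 0.05 with a fold change over 1.5, all 12 samples of a table, the replicate number as a block, and leaving out each replicate. The 7 genes and the lists (PP2A and related phosphatases, CDC25B-CDK1, mTORC1, COS-box relatives, hedgehog, neighbours of Mid1, X-linked genes and cell state markers) were chosen with earlier results of these data known. Genes named from a list are at most 2 called genes per direction and comparison, those with the largest difference. Likeness to Mid1 was the root mean square difference of the 8 group means over genes with a mean rlog of at least 3. Capture-C and RIP-seq data were not analysed here.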

Additional observations from a re-analysis of the deposited data

Results flagged for a closer look

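In ΔPG cells the genotype effect in RA differed from that in ESCs by the interaction test for Mid1 (0.30, limma adjusted p = 0.000934), Ppp2ca (-0.50, limma adjusted p = 3.11e-06), Ppp2cb (-0.30, limma adjusted p = 0.00296) and Ppp2r1a (0.24, limma adjusted p = 0.000251). All 4 interactions include the heterozygous ESC libraries that stood apart, beside the other groups of the table. With the GC trend removed these interactions were 0.23 (Mid1), -0.24 (Ppp2ca), -0.36 (Ppp2cb) and 0.061 (Ppp2r1a). In ΔG cells the effect on Mid1 differed by 0.41 (limma adjusted p = 0.0157). Every homozygous sample was below the heterozygous samples for Ppp2r1a in ΔPG ESCs (-0.24; -0.058 with the GC trend removed) and above them in ΔG ESCs (0.062). Every RA sample was above the ESC samples for Ppp2ca in heterozygous ΔPG cells (0.28; 0.066 with the GC trend removed and 0.51 after quantile normalization) and below them in heterozygous ΔG cells (-0.26; -0.23 with the GC trend removed and -0.036 after quantile normalization). These differences between the lines were not tested. Groups of 3 samples were not searched for outlying samples.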

How the results depend on the processing

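Over 70 results of single genes, 890 values were computed under the alternatives, of which 830 kept their direction and their side of the limits, 8 lost and 19 gained a call, and 33 changed sign, 0 of them for a called difference. Mid1 kept its call under 12 of 12 alternatives in ΔPG ESCs (-0.90 to -0.81) and RA-treated ΔPG cells (-0.62 to -0.57) and under 11 of 12 in ΔG ESCs (-0.66 to -0.54). The replicate number did not pair the samples (correlations of same-numbered samples -0.0255 to 0.0855 in ΔPG and -0.0330 to 0.0102 in ΔG, own number best in 8 of 18 and 3 of 18). With the replicate block, Mid1 in ΔG ESCs was -0.59 with a limma adjusted p of 0.110 (range over its alternatives 9.10e-09 to 0.110) and Mid1ip1 -0.77 with 0.137 (range 7.48e-05 to 0.137), neither called, 0 genes of the 7 were called there by limma instead of 2, and the count of all genes called went from 217 to 44 in ΔG ESCs and from 186 to 112 in RA-treated ΔPG cells. For each value below the cause was not tested, unless named.

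With the GC trend removed, Igbp1 was -0.25 and Mid1ip1 0.12 in ΔPG ESCs, Ppp2r1a 0.0030 in RA-treated ΔPG cells, Igbp1 0.29 in the ΔPG interaction and Mid1ip1 -0.063 for RA in homozygous ΔG cells. After quantile normalization, Mid2 was -0.011 and Ppp2ca -0.026 between RA-treated ΔPG genotypes, Mid2 0.43 (call lost) and Ppp2ca 0.51 (called) for RA in heterozygous ΔPG, Ppp2ca 0.024 and Ppp2r1a 0.080 for RA in homozygous ΔPG, Ppp2ca -0.033 in ΔG ESCs and -0.0055 in RA-treated ΔG cells, Ppp2r1a 0.12 for RA in heterozygous ΔG, and Mid1ip1 -0.37 and Mid1 0.55 (called) for RA in homozygous ΔG cells. Leaving out single samples changed signs for small differences: in RA-treated ΔPG cells Mid2 ran from -0.062 to 0.067, Igbp1 from -0.012 to 0.12, Ppp2ca from -0.017 to 0.030, Ppp2r1a from -0.014 to 0.0047 and Mid1ip1 from -0.0032 to 0.21. In ΔG ESCs Ppp2ca ran from -0.023 to 0.022 and Ppp2cb from -0.0061 to 0.11, in RA-treated ΔG cells Ppp2ca from -0.034 to 0.040, for RA in homozygous ΔG cells Mid1ip1 from -0.089 to 0.25, and in the ΔG interaction Ppp2ca from -0.038 to 0.037 and Ppp2cb from -0.0051 to 0.11. Mid1 kept its sign for RA in homozygous ΔG cells (0.44 to 0.56) and gained a call without replicate 3 of RA-treated cells or of ESCs.

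Called genes of the 7 numbered 1 instead of 2 in ΔPG ESCs after quantile normalization, GC removal or the stricter limits (1 to 2 without single samples). For RA in homozygous ΔPG cells they numbered 1 after quantile normalization or GC removal (0 to 1), in the ΔPG interaction 0 to 1 and in the ΔG interaction 0 to 1 without single samples. For RA in heterozygous ΔG cells limma called 0 with a mean rlog of at least 3, which leaves out Mid2, and 2 after quantile normalization (1 to 2), and for RA in homozygous ΔG cells 1 after quantile normalization (0 to 2). Counts of all genes went from 2893 to 843 (ΔPG ESCs) and from 3056 to 1086 (ΔPG interaction) with the GC trend removed, and with stricter limits from 217 to 117 (ΔG ESCs), 471 to 275 (RA-treated ΔG) and 524 to 268 (ΔG interaction). After quantile normalization the higher and lower calls were 3321 and 3503 instead of 3960 and 2987 for RA in heterozygous ΔPG, 2864 and 2960 instead of 3634 and 2482 in homozygous ΔPG, 3042 and 3304 instead of 3911 and 2588 in heterozygous ΔG, 2941 and 3305 instead of 3759 and 2675 in homozygous ΔG, and 70 and 78 instead of 78 and 139 in ΔG ESCs. Depth is unknown, and each group holds 3 samples of 1 clone.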
